A study of Homo sapiens with 11 samples.

Results

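The 10 Kruppel-like factor genes KLF2, KLF3, KLF4, KLF5, KLF6, KLF7, KLF9, KLF10, KLF11 and KLF13 were followed through 11 RNA-seq libraries of 2 drug-treated human cancer cell lines. They were taken by gene symbol from the deposited tables of read counts, where they are 10 of 23228 genes and 10 of the 17 symbols that begin with KLF. All 10 passed the filter on low counts and were among the 15888 genes tested. U2OS is an osteosarcoma line and MDA-MB231 is a breast cancer line of basal type, and each was exposed for 8 h to 1 of 4 drugs. Doxorubicin (1 µM) is an anthracycline that slips between DNA bases and traps topoisomerase II on cut DNA, etoposide (20 µM) traps the same enzyme without entering the helix, paclitaxel (0.2 µM) stabilises microtubules, and methyl methanesulfonate (MMS, 40 µg/mL) methylates DNA bases. The vehicle was DMSO.

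Each drug was represented by 1 library per line, U2OS by 1 DMSO library and MDA-MB231 by 2. The MMS library of MDA-MB231 and its DMSO replicate 2 carry 8hr in their titles and were set against each other, while the other MDA-MB231 drugs were set against DMSO replicate 1. DMSO replicate 2 has a free-text note of no treatment beside a DMSO treatment field, so its vehicle cannot be told apart from plain medium. Nothing in the labels says that libraries of 1 line came from separate cultures. With 1 library per drug and line, the spread behind the p-values below is how far the 2 lines differ in their drug responses. It holds no replicates within a line and drug, and part of it may be technical.

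Kruppel-like factors are transcription factors that bind GC-rich and CACCC sequences through a block of zinc fingers at the carboxyl end, and differ in the part that precedes it. KLF2, KLF4 and KLF5 mainly activate genes with acetyltransferases such as EP300 and CREBBP, and KLF6 and KLF7 carry an acidic activation domain. KLF3 represses genes through the corepressor CTBP, and KLF9, KLF10, KLF11 and KLF13 recruit the SIN3A repressor complex. KLF4 and KLF6 are known for raising the cell cycle inhibitor CDKN1A, KLF5 for driving proliferation of epithelial cells, and KLF10 and KLF11 for their early induction by TGF-beta. Transcripts of several members are short-lived and respond to serum, stress and hormones within hours.

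The upstream sequences of 5 of the 6 genes whose level changed with doxorubicin are shown first, since the measurement was of transcript level and transcription begins beside these windows. They are RefSeq sequences on build GRCh38.p14 from the 250 bases before an annotated start, cut to the stretch outside GENCODE 29 exons, and 8 of the 10 members matched the table (KLF3 and KLF10 did not). KLF7 has 4 listed starts, of which the most upstream was taken, and KLF11 has 2, of which the one further downstream was taken. The choices did not follow a common rule. The printed stretches are chr19:16324576-16324816 on the plus strand (KLF2), chr10:3785282-3785459 on the minus strand (KLF6), chr2:207167268-207167496 on the minus strand (KLF7), chr9:70414658-70414907 on the minus strand (KLF9) and chr2:10043971-10044174 on the plus strand (KLF11). Capitals mark matches on either strand to the MEF2 motif (KLF2), the E-box CACGTG (KLF6), the CCAAT box, which reads ATTGG on the other strand (KLF6, KLF7, KLF9), the CArG box (KLF7) and the cAMP response element TGACGTCA (KLF11).
KLF2: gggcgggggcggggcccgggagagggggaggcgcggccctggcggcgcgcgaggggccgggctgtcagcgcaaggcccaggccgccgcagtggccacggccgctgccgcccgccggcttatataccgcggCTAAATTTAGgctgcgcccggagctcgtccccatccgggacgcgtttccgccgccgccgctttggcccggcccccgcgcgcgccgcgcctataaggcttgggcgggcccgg
KLF6: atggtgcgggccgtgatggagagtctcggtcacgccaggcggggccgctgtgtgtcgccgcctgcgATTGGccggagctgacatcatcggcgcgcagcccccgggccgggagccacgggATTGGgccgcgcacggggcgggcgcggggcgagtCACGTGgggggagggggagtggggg
KLF7: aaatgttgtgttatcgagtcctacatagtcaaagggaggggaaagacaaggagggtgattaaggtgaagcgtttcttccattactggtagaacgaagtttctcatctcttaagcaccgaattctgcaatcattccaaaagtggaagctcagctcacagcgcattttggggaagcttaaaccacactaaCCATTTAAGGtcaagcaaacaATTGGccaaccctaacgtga
KLF9: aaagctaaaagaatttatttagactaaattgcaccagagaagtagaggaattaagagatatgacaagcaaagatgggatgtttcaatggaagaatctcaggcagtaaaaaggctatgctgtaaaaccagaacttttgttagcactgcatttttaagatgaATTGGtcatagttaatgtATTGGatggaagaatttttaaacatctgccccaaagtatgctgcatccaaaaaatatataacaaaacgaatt
KLF11: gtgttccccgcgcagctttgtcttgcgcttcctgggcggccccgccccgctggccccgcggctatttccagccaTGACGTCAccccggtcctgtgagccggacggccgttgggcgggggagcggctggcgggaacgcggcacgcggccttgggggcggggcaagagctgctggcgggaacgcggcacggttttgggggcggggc

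Over their full 250 bases these windows held 80% G and C for KLF2, 72.4% for KLF6, 43.2% for KLF7, 32.4% for KLF9 and 74.4% for KLF11. The MEF2 motif, bound by the factors through which the kinase ERK5 is known to induce KLF2, lies 120 bases before the KLF2 start and occurs in 0.515% of 35116 RefSeq windows of that length. The cAMP response element lies 176 bases before the KLF11 start and occurs in 1.65% of windows, and the CArG box lies 62 bases before the KLF7 start and occurs in 1.16%. The E-box occurs in 6.34% of windows and the CCAAT box in 32%. These shares are per window, while every listed start of a gene was searched for every motif. Neither the CArG box of KLF7 nor the cAMP response element of KLF11 matched in the other listed windows of its gene. The TATA box TATAAA (10.7% of windows) and the AP-1 site TGANTCA (6.57%) were searched as well. The TATA box matched only in a KLF5 window that is not shown, and the AP-1 site in no window of the 8 genes. The glucocorticoid response element, searched as the letters GNACA and TGTNC with any 3 bases between them, had no match in any window of the 8 genes and occurs in 0.327% of all windows. The GC box GGGCGG (42.6% of windows) and the letters CACCC (54.7%), both of which Kruppel-like factors themselves can bind, were searched but not capitalised. The windows of KLF2 and KLF11 shown here held 4 and 6 GC boxes, that of KLF6 held 2, and those of KLF7 and KLF9 held none. The KLF7 windows not shown ranged from 41.6% to 72% G and C, and the one at 72% alone held GC boxes, 4 of them. A match describes letters and was not tested as a site of binding.

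Between 16774156 and 31588683 reads were counted to genes per library, of which the 10 genes took 0.0453% to 0.0749%. The share of reads aligned to several places was 37.5% in doxorubicin-treated U2OS cells and 34.4% in doxorubicin-treated MDA-MB231 cells, against 32.7% in U2OS DMSO and 30.0% and 30.4% in the MDA-MB231 DMSO libraries, and its part in the doxorubicin results was not tested. Of 12 markers of basal breast cells, 8 to 10 reached 1 CPM in each U2OS library and 8 or 9 in each MDA-MB231 library, so the count of this list did not separate the lines. KRT17 ran at 147 to 1051 CPM in U2OS, against 0.669 to 9.84 CPM in MDA-MB231, where KRT5, KRT6A and KRT14 stayed at or below 0.401 CPM. KRT19 went the other way, at 65.3 to 182 CPM in MDA-MB231 against 0.027 to 0.344 CPM in U2OS. EGFR ran at 90.0 to 516 CPM in MDA-MB231 and 49.5 to 112 CPM in U2OS, with an overlap. Of 10 bone markers, 6 reached 1 CPM in each U2OS library and 4 or 5 in each MDA-MB231 library. SPARC ran at 596 to 1957 CPM in U2OS, against 0.161 to 2.34 CPM in MDA-MB231, but CDH11 at 2.5 to 26.2 CPM in U2OS, against 98.1 to 370 CPM in MDA-MB231, and SP7, COL1A2, BGLAP and IBSP stayed at or below 0.635 CPM in U2OS. The 9 markers of blood and endothelium, the tissues KLF2 is best known from, summed to 1.38 to 6.15 CPM in U2OS and 3.09 to 28.2 CPM in MDA-MB231. Levels here are CPM, read counts scaled to a common library size with TMM, and a lower CPM from fewer cells making a transcript cannot be told apart from less transcript per cell.

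Per kilobase of exon, KLF5 was the highest member in vehicle-treated U2OS cells at 37.0 CPM per kb, followed by KLF10 at 24.9 and KLF13 at 22.4 CPM per kb. KLF6, KLF3 and KLF11 lay close together at 14.2, 13.1 and 12.9 CPM per kb, and with 1 DMSO library in U2OS this order has no replicate error. KLF9, KLF4, KLF2 and KLF7 followed at 6.71, 3, 1.95 and 1.43 CPM per kb. In MDA-MB231 the order differed, with KLF6 first at 58.8 and 46.8 CPM per kb in the DMSO libraries, then KLF10 at 21.2 and 19.2 and KLF5 at 12.5 and 12.7 CPM per kb. KLF3 and KLF4 changed places between those libraries (9.36 and 8.08 CPM per kb for KLF3, 8.95 and 9.61 for KLF4), as did KLF13, KLF9 and KLF2 below them. KLF7 was last in all 3 DMSO libraries, at 0.31 and 0.217 CPM per kb in MDA-MB231.

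Across all treatments, 8 of the 10 genes differed in level between the lines (edgeR quasi-likelihood test, adjusted p under 0.05), beside 61% of all genes tested (33.1% higher in U2OS and 27.9% lower). KLF13, KLF7, KLF11, KLF5 and KLF9 were higher in U2OS, and KLF6, KLF4 and KLF2 were lower. The share of all genes whose levels do not overlap between the lines was not counted. KLF13 had a lowest, median and highest level of 87.4, 154 and 179 CPM in the 5 U2OS libraries, against 14.1, 35.2 and 52.7 CPM in the 6 MDA-MB231 libraries, and the lines did not overlap. Its log2 difference was 2.17 ± 0.24 (SE; edgeR adjusted p = 6.24e-05). KLF4 did not overlap either, at 7.13, 8.34 and 11.1 CPM in U2OS against 13.5, 27.2 and 35.0 CPM in MDA-MB231 (log2 difference -1.60 ± 0.18, edgeR adjusted p = 7.72e-05). KLF6 stood at 39.3, 40.0 and 95.3 CPM in U2OS against 72.3, 279 and 461 CPM in MDA-MB231, where the doxorubicin library alone reached down into the U2OS range (log2 difference -2.15 ± 0.32). KLF7 stood at 2.57, 12 and 25.8 CPM in U2OS against 1.32, 2.56 and 5.71 CPM in MDA-MB231 (log2 difference 1.98 ± 0.26), with an overlap made by the MMS library of U2OS.

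The smaller differences in level were 1.03 for KLF11, 0.94 for KLF5, 0.73 for KLF9 and -0.62 for KLF2 on the log2 scale, and the lines overlapped in each. KLF2 lost its call when 1 of 5 libraries was left out, with log2 differences of -0.80 to -0.44 over the 11 fits that each left out 1 library. These were MDA-MB231 DMSO replicate 1 or 2, MDA-MB231 paclitaxel, U2OS DMSO and U2OS paclitaxel. KLF5 lost its call without the MMS library of U2OS (1.01) or of MDA-MB231 (1.01), U2OS DMSO (0.68), or DMSO replicate 2 of MDA-MB231 (0.88). KLF3, at 0.37 ± 0.17, and KLF10, at 0.02 ± 0.20, were not called, though KLF3 was called without the MMS library of either line (0.65 in each case).

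**Figure D1:**
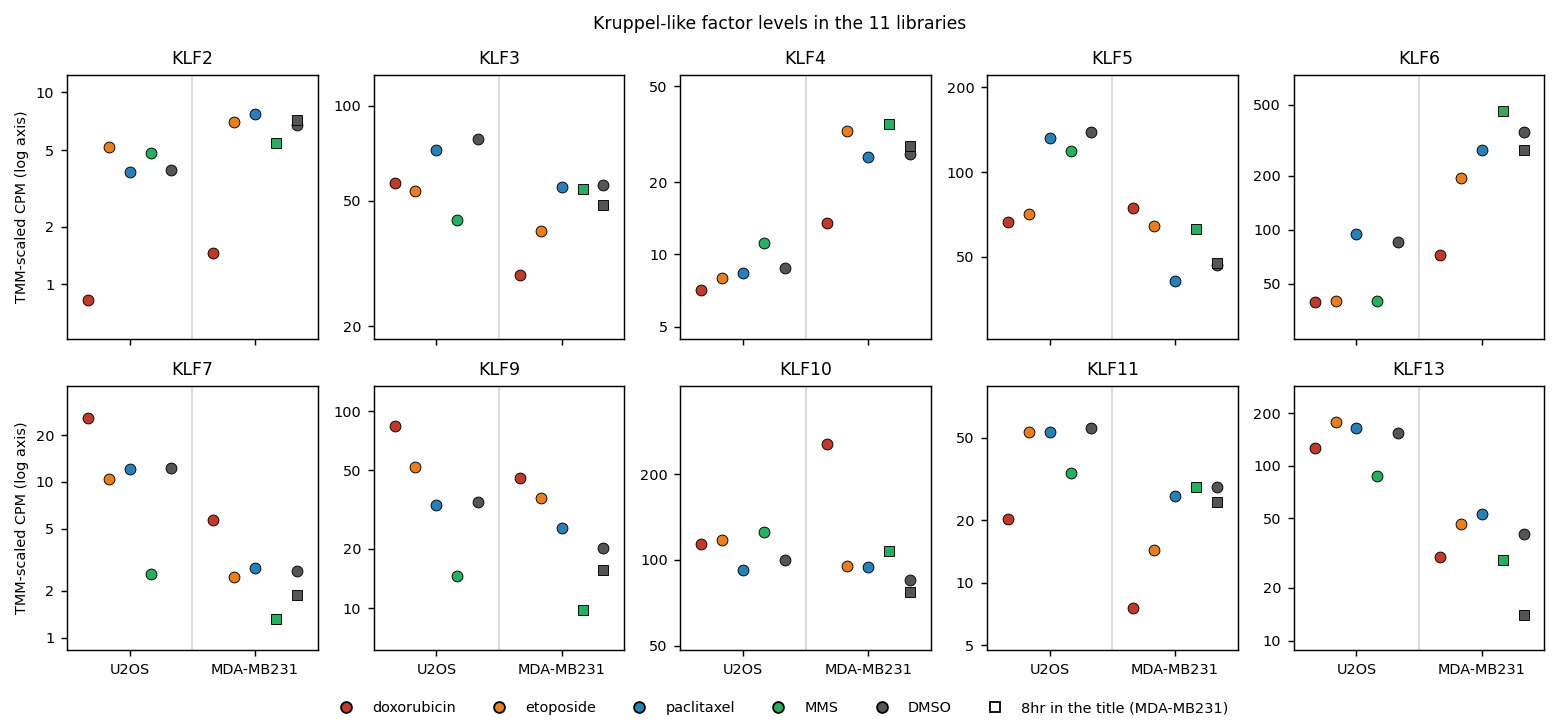
Level of each gene in TMM-scaled CPM (vertical log axis) in every library, U2OS left and MDA-MB231 right, coloured by treatment, with squares for the MDA-MB231 libraries that carry 8hr in their titles. KLF2 is lowest in the doxorubicin library of each line, KLF9 is highest there, and the square and circle for KLF13 in MDA-MB231 DMSO lie apart at 14.1 and 40.6 CPM.

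Doxorubicin changed 6 of the 10 genes in the mean response over both lines, 3 in each direction, and etoposide and MMS changed 1 each. KLF2, KLF6 and KLF11 fell with doxorubicin and KLF7, KLF9 and KLF10 rose. Among all genes tested, 42.5% were called for doxorubicin (21.9% higher and 20.6% lower), 17.2% for etoposide (7.97% higher and 9.23% lower) and 10.4% for MMS (5.23% higher and 5.16% lower), so counts of 6, 1 and 1 among 10 are not read as particular to the family. With paclitaxel none of the 10 was called by edgeR, DESeq2 or limma-voom and 0 had an unadjusted edgeR p under 0.05, beside 0% of all genes called. The median log2 fold change over the 10 genes was -0.34 for doxorubicin, 0.05 for etoposide, 0.05 for paclitaxel and -0.18 for MMS, beside 0.07, 0.02, 0.01 and -0.04 over all genes tested. Scaling by total gene counts in place of TMM moved the all-gene median to -0.15 for doxorubicin and 0.15 for etoposide. It turned the split of all genes called higher and lower from 3476 and 3272 into 2453 and 4064 for doxorubicin, and from 1267 and 1467 into 1855 and 1030 for etoposide.

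**Figure D2:**
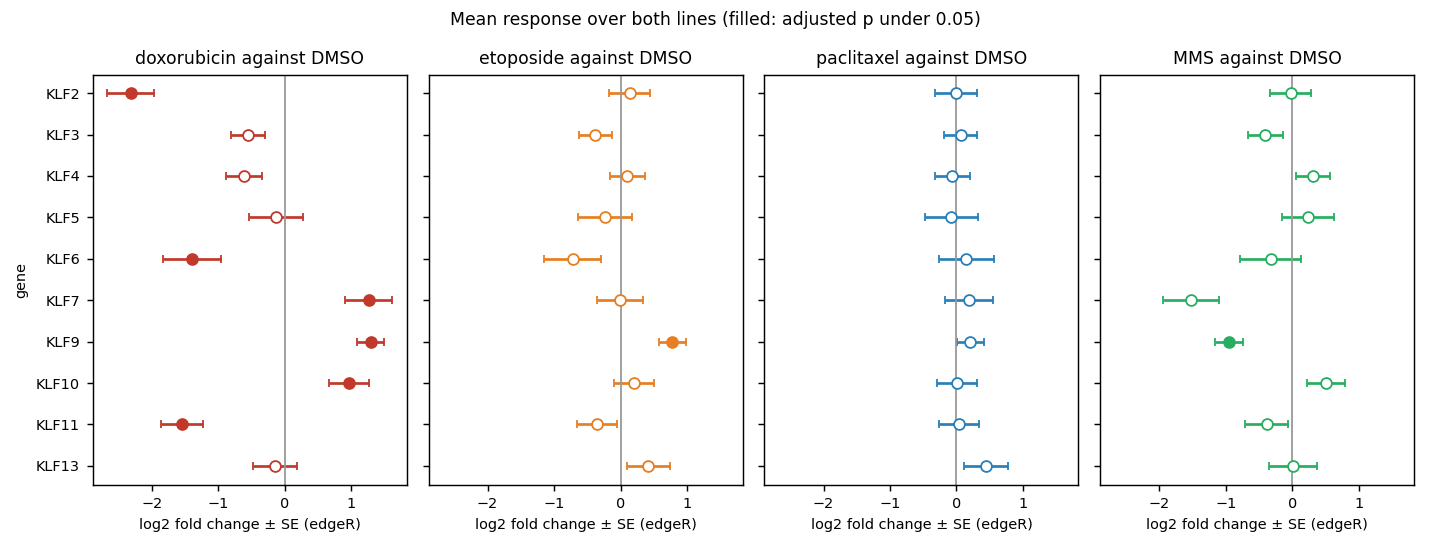
Mean log2 fold change over both lines with its SE (horizontal axis, edgeR) for each gene, 1 panel per drug against DMSO; filled points have an adjusted p under 0.05. The doxorubicin panel spreads from -2.32 for KLF2 to 1.30 for KLF9, while no point of the paclitaxel panel exceeds 0.45.

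Within a line, where each drug is 1 library against 1 and there is no replicate check, doxorubicin moved 5 genes by at least 2-fold in U2OS and 5 in MDA-MB231, beside 32.6% and 27% of all genes with a larger level of at least 5 CPM. In U2OS these were KLF7 and KLF9 upward and KLF5, KLF6 and KLF11 downward. KLF2 in U2OS, with a log2 ratio of -1.74, was also past 2-fold but is not in this count, since both of its levels lay under 5 CPM. In MDA-MB231 they were KLF9 and KLF10 upward and KLF2, KLF6 and KLF11 downward. Etoposide moved 1 gene that far in U2OS, KLF6, and 0 in MDA-MB231, beside 13.6% and 19.8% of all genes. MMS moved KLF6, KLF7 and KLF9 downward in U2OS and KLF13 upward in MDA-MB231, beside 18.6% and 6.11% of all genes. Paclitaxel moved none in either line, beside 0.0888% of all genes in U2OS and 0.471% in MDA-MB231. The sign of the response was the same in both lines for 9 of 10 genes with doxorubicin and 8 with etoposide. It was the same for 5 with paclitaxel and 4 with MMS. The share over all genes was not counted, so these counts are not read as particular to the family.

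**Figure D3:**
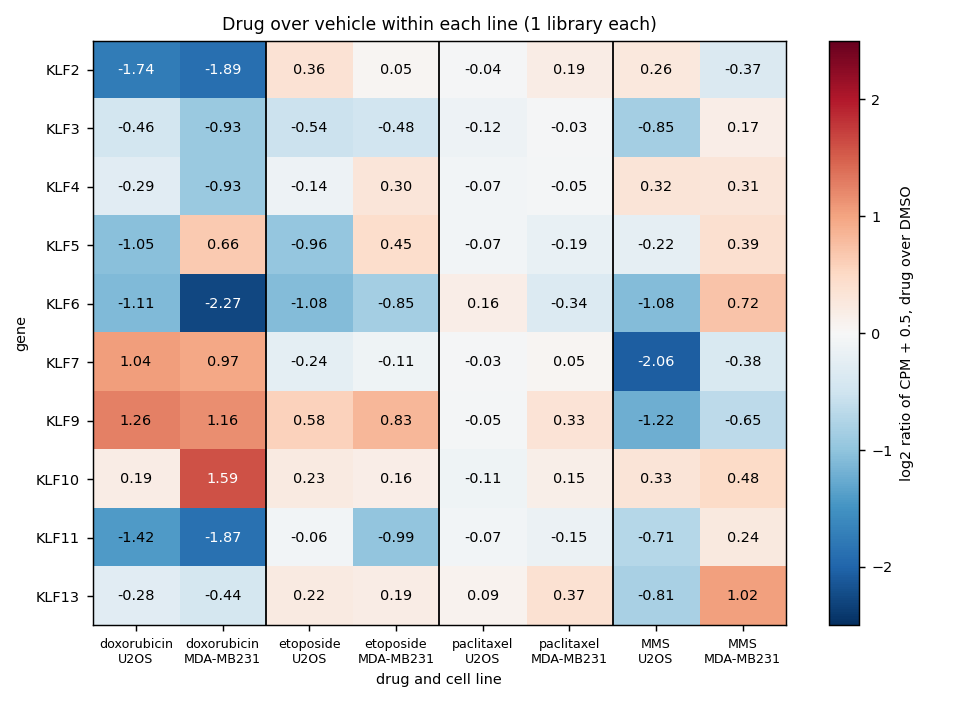
Log2 ratio of each drug library over the DMSO library of the same line (CPM + 0.5; colour and printed value), genes down the page and drug and line across. The doxorubicin columns share their sign in every gene but KLF5. The MMS columns share it in 4, with KLF7 at -2.06 in U2OS and KLF13 at 1.02 in MDA-MB231. The share over all genes was not counted.

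KLF2, the factor that keeps endothelial cells and T cells quiescent, was low in both lines and fell further with doxorubicin. In U2OS it stood at 0.83 CPM (17 reads) with doxorubicin, 5.22 with etoposide, 3.83 with paclitaxel and 4.83 with MMS, against 3.94 CPM (77 reads) with DMSO. In MDA-MB231 it stood at 1.45 CPM (31 reads) with doxorubicin, 6.98 with etoposide, 7.75 with paclitaxel and 5.46 with MMS, against 6.73 and 7.19 CPM in the DMSO libraries (171 and 115 reads). The doxorubicin library was the lowest of each line, and the other libraries of a line lay close together. The mean log2 fold change with doxorubicin was -2.32 ± 0.36 (SE; edgeR adjusted p = 0.00127), a level 0.2 times that of DMSO, and it remained called in all 18 alternatives. Within U2OS the log2 ratio was -1.74 with a counting interval (exact Clopper-Pearson, 95%) of -3.10 to -1.48, and within MDA-MB231 it was -1.89 (-2.82 to -1.66). The 0.5 CPM added to both sides pulls ratios of low genes toward 0, and the intervals cover counting error only.

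KLF4, a reprogramming factor that restrains the cell cycle in epithelium, was not called for any drug against DMSO. It stood at 7.13 CPM with doxorubicin, 7.98 with etoposide, 8.34 with paclitaxel and 11.1 with MMS in U2OS, against 8.81 CPM with DMSO. In MDA-MB231 the same drugs gave 13.5, 32.5, 25.4 and 35.0 CPM, against 26.2 and 28.2 CPM with DMSO. The doxorubicin library of MDA-MB231 lay below both DMSO libraries, and the MMS library of each line was its highest. The doxorubicin log2 fold change was -0.61 ± 0.27 (edgeR adjusted p = 0.0976); it was called under total-count scaling (-0.85) and without the doxorubicin library of U2OS (-0.98).

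KLF5, a promoter of epithelial proliferation, lay below DMSO in U2OS and above it in MDA-MB231 with doxorubicin and etoposide. In U2OS it stood at 66.8 CPM with doxorubicin, 71.0 with etoposide, 132 with paclitaxel and 119 with MMS, against 139 CPM with DMSO. In MDA-MB231 it stood at 74.3 CPM with doxorubicin, 64.1 with etoposide, 40.9 with paclitaxel and 62.6 with MMS, against 46.8 and 47.6 CPM with DMSO. Both topoisomerase II poisons gave the lowest U2OS levels and the highest MDA-MB231 levels, and the lines came to similar levels under them. The log2 ratios were -1.05 and -0.96 in U2OS and 0.66 and 0.45 in MDA-MB231 for doxorubicin and etoposide. The mean response to each was near 0 (-0.13 ± 0.41 and -0.23 ± 0.41), and the difference between the lines, tested as its own term, was -1.26 ± 0.57 for doxorubicin (edgeR adjusted p = 0.356) and -0.87 ± 0.67 for etoposide (0.75).

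KLF6, an injury-responsive activator and candidate tumour suppressor, was the most abundant member in both DMSO libraries of MDA-MB231, but not in its doxorubicin library. With doxorubicin it stood at 39.3 CPM in U2OS and 72.3 CPM in MDA-MB231, against 85.1 CPM in U2OS DMSO and 351 and 279 CPM in MDA-MB231 DMSO. Etoposide gave 39.9 CPM in U2OS and 195 CPM in MDA-MB231, below DMSO in both lines, and paclitaxel gave 95.3 and 278 CPM. MMS gave 40.0 CPM in U2OS, level with doxorubicin and etoposide, and 461 CPM in MDA-MB231, the highest of all 11 libraries. The doxorubicin log2 fold change was -1.40 ± 0.44 (edgeR adjusted p = 0.0293), against -0.72 ± 0.42 for etoposide (0.265) and -0.33 ± 0.46 for MMS (0.681). The doxorubicin call was lost without MDA-MB231 DMSO replicate 1 (-1.04), MDA-MB231 doxorubicin (-0.93), MDA-MB231 paclitaxel (-1.40), U2OS DMSO (-1.28) or U2OS paclitaxel (-1.40), and with no filter on low counts (-1.48).

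KLF7, an activator best known from neurons and fat, rose with doxorubicin in both lines and was lowest with MMS. In U2OS it stood at 25.8 CPM with doxorubicin, 10.4 with etoposide, 12 with paclitaxel and 2.57 with MMS (66 reads), against 12.3 CPM with DMSO (241 reads). In MDA-MB231 it stood at 5.71 CPM with doxorubicin, 2.45 with etoposide, 2.78 with paclitaxel and 1.32 with MMS (33 reads), against 2.67 and 1.87 CPM with DMSO (68 and 30 reads). The doxorubicin library was the highest and the MMS library the lowest of each line. The doxorubicin log2 fold change was 1.26 ± 0.36 (edgeR adjusted p = 0.0200), and the call was lost without MDA-MB231 DMSO replicate 1 (1.37) or U2OS doxorubicin (1.24). With MMS the value was -1.53 ± 0.42 (edgeR adjusted p = 0.0501), not called, but called in 9 of 18 alternatives, among them DESeq2 (-1.51, adjusted p = 0.00351) and limma-voom (-1.73, adjusted p = 0.0233). Within MDA-MB231 alone the MMS log2 ratio was -0.38 with a counting interval of -1.26 to 0.26, so a difference from DMSO was not detectable at that depth.

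KLF3, which represses genes through CTBP and is known from fat and B cells, was not called for any drug. It stood at 57.1 CPM with doxorubicin, 53.8 with etoposide, 72.4 with paclitaxel and 43.5 with MMS in U2OS, against 78.7 CPM with DMSO. The MDA-MB231 levels were 29.1 CPM with doxorubicin, 40.2 with etoposide, 55.1 with paclitaxel and 54.4 with MMS, against 56.1 and 48.4 CPM with DMSO. All 4 drug libraries of U2OS lay below DMSO. In MDA-MB231 those of doxorubicin and etoposide lay below both DMSO libraries, and those of paclitaxel and MMS lay between them. The doxorubicin log2 fold change was -0.55 ± 0.25 (edgeR adjusted p = 0.111); it was called under total-count scaling (-0.78) and without the MMS library of U2OS (-0.70) or of MDA-MB231 (-0.70), and without DMSO replicate 2 of MDA-MB231 (-0.74).

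Of the members that bind SIN3A, KLF9 was the one whose level was called for 3 drugs. KLF9, a target of the glucocorticoid and thyroid hormone receptors, stood in U2OS at 83.7 CPM with doxorubicin, 52.3 with etoposide, 33.5 with paclitaxel and 14.6 with MMS, against 34.7 CPM with DMSO. In MDA-MB231 it stood at 45.7 CPM with doxorubicin, 36.2 with etoposide, 25.5 with paclitaxel and 9.8 with MMS, against 20.1 and 15.6 CPM with DMSO. The order was the same in both lines for doxorubicin, etoposide and MMS: doxorubicin highest, etoposide next and MMS below every DMSO library of the line. The log2 fold changes were 1.30 ± 0.20 for doxorubicin (edgeR adjusted p = 0.00145), 0.78 ± 0.20 for etoposide (0.033), 0.21 ± 0.21 for paclitaxel (1) and -0.96 ± 0.21 for MMS (0.0277). The doxorubicin call was kept in all 11 fits that left out 1 library, with values of 1.18 to 1.44.

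The etoposide call of KLF9 was lost in 8 of those 11 fits, with values of 0.72 to 0.92 over all 11. It was kept without MDA-MB231 doxorubicin, U2OS doxorubicin or MDA-MB231 DMSO replicate 2, and lost without any of the other libraries. The MMS call was lost without MDA-MB231 DMSO replicate 1 (-0.97), U2OS DMSO (-0.84) or U2OS MMS (-0.67). Within a line the log2 ratios for doxorubicin, etoposide and MMS were 1.26, 0.58 and -1.22 in U2OS and 1.16, 0.83 and -0.65 in MDA-MB231.

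KLF10, a TGF-beta early gene with growth-restraining activity, was high with doxorubicin in MDA-MB231. In U2OS it stood at 114 CPM with doxorubicin, 117 with etoposide, 92.4 with paclitaxel and 125 with MMS, against 99.7 CPM with DMSO. In MDA-MB231 it stood at 256 CPM with doxorubicin, 94.9 with etoposide, 94.2 with paclitaxel and 108 with MMS, against 84.8 and 76.9 CPM with DMSO. The 10 libraries other than MDA-MB231 doxorubicin lay between 76.9 and 125 CPM. The mean doxorubicin log2 fold change was 0.96 ± 0.30 (edgeR adjusted p = 0.03), and without the MDA-MB231 doxorubicin library it was 0.17 and not called. The call was also lost without MDA-MB231 DMSO replicate 1 (0.73), MDA-MB231 DMSO replicate 2 (0.92) or either MMS library (0.96 in each case), under total-count scaling (0.77) and with no filter on low counts (0.88).

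KLF11, the second TGF-beta early gene of the family, fell with doxorubicin in both lines. In U2OS it stood at 20.4 CPM with doxorubicin, 53.2 with etoposide, 53.0 with paclitaxel and 33.7 with MMS, against 55.5 CPM with DMSO. The MDA-MB231 libraries held 7.58 CPM with doxorubicin, 14.4 with etoposide, 26.2 with paclitaxel and 29 with MMS, against 29.1 and 24.4 CPM with DMSO. Doxorubicin gave the lowest level in each line, etoposide the second lowest in MDA-MB231 and MMS the second lowest in U2OS. The doxorubicin log2 fold change was -1.55 ± 0.32 (edgeR adjusted p = 0.00515), a level 0.343 times that of DMSO, and it was called in all 11 fits that left out 1 library (-1.75 to -1.22). Those of etoposide (-0.35 ± 0.31) and MMS (-0.39 ± 0.32) were not called.

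KLF13, a regulator of chemokine and cardiac genes, was not called for any drug, and its vehicle libraries differed. DMSO replicates 2 and 1 of MDA-MB231 held 14.1 and 40.6 CPM (225 and 1032 reads), a log2 difference of -1.50, the 1 member of 10 past 2-fold between these libraries, beside 1.78% of 10826 genes. Against DMSO replicate 2, the MMS library of MDA-MB231 at 29 CPM gave a log2 ratio of 1.02, and against replicate 1 it gave -0.48. The doxorubicin, etoposide and paclitaxel libraries of MDA-MB231 held 29.9, 46.4 and 52.7 CPM. In U2OS the drugs gave 127 CPM with doxorubicin, 179 with etoposide, 164 with paclitaxel and 87.4 with MMS, against 154 CPM with DMSO. Its log2 fold changes over both lines ran from -0.14 ± 0.33 for doxorubicin to 0.45 ± 0.33 for paclitaxel.

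The drugs were also compared directly, since their responses share the DMSO libraries. Doxorubicin against etoposide called 3 of the 10 genes, beside 46.4% of all genes. KLF2 (log2 difference -2.45 ± 0.36, edgeR adjusted p = 0.000794) and KLF11 (-1.19 ± 0.33, 0.0166) were lower and KLF7 (1.27 ± 0.38, 0.0235) was higher with doxorubicin. KLF2 kept this call in all 11 fits that left out 1 library. KLF11 lost it without MDA-MB231 doxorubicin (-1.15) or U2OS etoposide (-0.71), and KLF7 without any of the 4 doxorubicin and etoposide libraries (1.24 to 1.28). DESeq2 called 6 genes, adding KLF4, KLF9 and KLF10, while limma-voom called 4, adding KLF4 alone. The 46.4% is the edgeR share, and those of the other tools are not given here.

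MMS against doxorubicin called 5 genes, beside 42.6% of all genes: KLF2 (2.30 ± 0.39), KLF11 (1.16 ± 0.38) and KLF4 (0.93 ± 0.31) were higher with MMS and KLF7 (-2.79 ± 0.49) and KLF9 (-2.25 ± 0.26) were lower. The edgeR adjusted p was 0.000376 for KLF9, which was called in all 11 fits that left out 1 library, and 0.0383 for KLF4, which lost its call in 8 of them. KLF2 (1.84) and KLF7 (-1.57) lost it without U2OS MMS. KLF11 lost it in 7, all but those without MDA-MB231 etoposide, MDA-MB231 paclitaxel, U2OS etoposide or U2OS MMS, with values of 0.79 to 1.96 over the 11. KLF4 was kept without MDA-MB231 etoposide, U2OS doxorubicin or U2OS etoposide, with values of 0.71 to 1.38. MMS against etoposide called KLF9 alone (-1.74 ± 0.25, edgeR adjusted p = 0.0097), beside 9.06% of all genes, and this call was lost without U2OS MMS (-1.39).

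Whether a response differed between the lines was tested with 1 added term per drug. None of the 10 genes was called by edgeR for any of the 4 drugs, beside 0% of all genes in each. Each term takes the responses to the other drugs as equal in both lines, so line differences with those drugs enter its error. A gene that was not called is therefore not shown to respond alike in both lines. At an unadjusted edgeR p under 0.05 there were 2 genes for doxorubicin, 0 for etoposide, 0 for paclitaxel and 4 for MMS, beside 15.3%, 8.33%, 0.793% and 5.15% of all genes tested. KLF10 had the smallest p for doxorubicin, with a U2OS minus MDA-MB231 difference of -1.33 ± 0.22 (unadjusted p = 0.000371, edgeR adjusted p = 0.132), and DESeq2 called it (-1.35, adjusted p = 3.58e-05). For MMS the 4 were KLF6 (-2.00 ± 0.60), KLF13 (-1.85 ± 0.32), KLF7 (-1.73 ± 0.55) and KLF3 (-1.06 ± 0.38), all lower in U2OS relative to MDA-MB231, with edgeR adjusted p of 0.441 to 0.875. DESeq2 called KLF13 for MMS (-1.79), whose MDA-MB231 response is taken against the DMSO library at 14.1 CPM, and limma-voom called none of the 10 for any drug.

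For each member the 2 genes with the most similar 8 log2 ratios (4 drugs in 2 lines) were found among 10266 genes by the mean absolute difference. KLF4 had the closest neighbours, DYRK1A at 0.0638 and DHX36 at 0.0886 log2 units. KLF2 was nearest to MTMR6 (0.116) and GLTSCR2 (0.153), and KLF3 to ZNF48 (0.128) and UBE2Q2 (0.133). KLF13 was nearest to WDR81 (0.146) and SLC35C1 (0.201), KLF10 to LRTOMT (0.148) and SHISA4 (0.215), and KLF9 to RNASET2 (0.191) and PCYOX1 (0.202). KLF5 was nearest to HMGCS1 (0.212) and UPF2 (0.241), and KLF6, the most isolated, to WDR35 (0.28) and ANKRD28 (0.294). Among the members, KLF3 and KLF4 were the closest pair (0.342) and KLF6 and KLF9 the most distant (1.44). The ratios of a line share their DMSO library, so these distances only describe the libraries at hand.

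Of the other 16 KLF and SP genes, which bind the same kind of GC-rich site, 14 were tested. Doxorubicin raised 3 and lowered 3 of them, etoposide raised 2, paclitaxel changed 0 and MMS raised 1 and lowered 2, beside 42.5%, 17.2%, 0% and 10.4% of all genes tested for the 4 drugs in that order. The list medians were 0.21, 0.00, 0.06 and -0.03 on the log2 scale, beside 0.07, 0.02, 0.01 and -0.04 over all genes tested. SP3 fell with doxorubicin to 90.2 CPM in U2OS and 54.2 CPM in MDA-MB231, against 183 and 124 CPM with DMSO (-1.09 ± 0.17, edgeR adjusted p = 0.00127). SP6 rose with etoposide to 12.5 CPM in U2OS and 15.2 CPM in MDA-MB231, against 5.12 and 5 CPM with DMSO (1.36 ± 0.28), and with MMS (1.28 ± 0.27). KLF1 (4.11 ± 0.86 with doxorubicin) and KLF17 (-3.65 ± 0.59 with MMS) were called on levels below 2 CPM, with 1 and 3 reads in their lowest library.

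Of 11 tested genes of the ERK5 and MEF2 pathway, which lies upstream of KLF2, doxorubicin raised 0 and lowered 4, etoposide raised 2 and lowered 1, paclitaxel changed 0 and MMS lowered 2, beside the same 42.5%, 17.2%, 0% and 10.4% of all genes tested. MAP2K5, the kinase that activates ERK5, fell with doxorubicin to 6.05 CPM in U2OS and 4.63 CPM in MDA-MB231, against 26.0 and 14.2 CPM with DMSO (-1.88 ± 0.25, edgeR adjusted p = 0.000747). MEF2C, a factor that binds MEF2 motifs, fell with MMS (-2.55 ± 0.43), and with etoposide HDAC5, a repressor of MEF2 factors, rose (1.46 ± 0.22) while HDAC9 fell (-0.63 ± 0.18). Of 9 tested glucocorticoid receptor genes and targets, doxorubicin raised 1 and lowered 3, etoposide raised 2 and lowered 1, paclitaxel changed 0 and MMS raised 3 and lowered 1, read against the same shares. Among the called genes of this list, FKBP5 (0.49 ± 0.16) and NFKBIA (-2.07 ± 0.34) stood at the ends for doxorubicin, DUSP1 (0.94 ± 0.24) and the receptor NR3C1 (-0.66 ± 0.17) for etoposide, and TSC22D3 (2.68 ± 0.40) and NR3C1 (-0.83 ± 0.17) for MMS.

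All 22 TGF-beta pathway genes were tested, and doxorubicin raised 7 and lowered 5, etoposide raised 3 and lowered 5, paclitaxel changed 0 and MMS raised 1 and lowered 9, beside 42.5%, 17.2%, 0% and 10.4% of all genes tested. By direction, 21.9% of all genes were higher and 20.6% lower with doxorubicin, and 5.23% higher and 5.16% lower with MMS. The list medians were -0.12, -0.17, 0.04 and -0.75, beside 0.07, 0.02, 0.01 and -0.04 over all genes tested. TGFB3, a ligand, rose with doxorubicin to 35.6 CPM in U2OS and 10.2 CPM in MDA-MB231, against 4.92 and 2.52 CPM with DMSO (2.52 ± 0.35), and with etoposide (1.72 ± 0.35). PMEPA1, a TGF-beta target that dampens the pathway, fell with doxorubicin (-1.95 ± 0.27), the ligand TGFB2 fell with etoposide (-2.62 ± 0.68), and with MMS the inhibitor SMAD6 fell (-2.92 ± 0.59) while SMAD4 rose (0.76 ± 0.15).

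The partners of these proteins and the enzymes that add ubiquitin to them or remove it were counted as well. Of 16 cofactors, doxorubicin raised 4 and lowered 6, etoposide lowered 5, paclitaxel changed 0 and MMS lowered 1, beside 42.5%, 17.2%, 0% and 10.4% of all genes tested. HDAC3 rose (0.68 ± 0.14) and FHL3, a partner of KLF3, fell (-1.28 ± 0.20) with doxorubicin. Of 10 ubiquitin ligases and proteases, doxorubicin lowered 5, etoposide 1 and MMS 1, and none was called higher with any drug. Of all genes tested, 20.6% were lower and 21.9% higher with doxorubicin, 9.23% lower and 7.97% higher with etoposide, and 5.16% lower and 5.23% higher with MMS. SMURF2, a ligase that acts on KLF5 and SMAD proteins, was called for all 3, at -1.82 ± 0.19 with doxorubicin (edgeR adjusted p = 0.000354), -1.31 ± 0.19 with etoposide and -0.80 ± 0.19 with MMS. It stood at 34.4 CPM in doxorubicin-treated U2OS cells and 77.3 CPM in doxorubicin-treated MDA-MB231 cells, against 94.4 and 370 CPM with DMSO.

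Of 36 tested genes reported as Kruppel-like factor targets, doxorubicin raised 3 and lowered 8, etoposide raised 2 and lowered 10, paclitaxel changed 0 and MMS raised 1 and lowered 5, beside 42.5%, 17.2%, 0% and 10.4% of all genes tested. The list medians were 0.00, -0.40, 0.08 and -0.37, beside 0.07, 0.02, 0.01 and -0.04 over all genes tested. CCNB1, a mitotic cyclin, fell with doxorubicin to 102 CPM in U2OS and 87.8 CPM in MDA-MB231, against 436 and 449 CPM with DMSO (-2.17 ± 0.26, edgeR adjusted p = 0.000503). CDKN1A, the inhibitor that KLF4 and KLF6 can raise, rose with etoposide (1.71 ± 0.50) and MMS (1.8 ± 0.46). EDN1, a vasoconstrictor peptide that KLF2 represses in endothelium, fell with etoposide (-2.65 ± 0.71), PLAU, a protease, fell with MMS (-2.44 ± 0.43), and CDKN2A was called with doxorubicin (1.21 ± 0.31) on 3 reads in its lowest library. Of the 34 results of single genes at the ends of these lists, 8 of the 12 for doxorubicin, 0 of the 11 for etoposide and 0 of the 11 for MMS were called in every fit that left out 1 library. The 8 were those of SP3, MAP2K5, NFKBIA, TGFB3, PMEPA1, FHL3, SMURF2 and CCNB1.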

How the data were processed

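RNA-seq read counts of 11 libraries were analysed. The authors deposited, per library, a table of whole-number counts for 23228 gene symbols and 5 summary lines. The submitters' processing notes name CASAVA 1.8.2, TopHat2 2.0.8b and HTSeq without a version, and they list the builds hg19 and mm9; hg19 was taken for these human lines. Whether counting used strand is not given in the sources used here; antisense reads cannot be told apart. The summary lines, among them 28.4% to 37.5% of reads with several alignments and 7.16% to 9.7% outside genes, stayed out of library sizes and tests. The 2 MDA-MB231 DMSO libraries differed by more than sampling noise (chi-square per degree of freedom 28.1 over 13305 genes) and counted as 2 samples.

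All libraries entered 1 fit in R 4.3.3 with edgeR 4.0.16 (TMM, filterByExpr, robust quasi-likelihood, 15888 genes, common biological coefficient of variation 0.213), with 4 drug terms and a 3-level block: U2OS, and MDA-MB231 without and with 8hr in the title. Each block level holds its own DMSO library, and 4 residual degrees of freedom were left (3 with a line term). The pairing comes from the cell line: deviations from drug means correlated at 0.708 or more in all 25 pairs of libraries of the same line. With 1 library per line and drug, the deviations of the lines mirror each other. The 25 pairs are therefore not separate checks, and they describe the difference in level between the lines. A call is a p below 0.05 after Benjamini-Hochberg adjustment over all genes tested, and SE is the log2 fold change over the square root of F. Within-line log2 ratios used TMM-scaled CPM with 0.5 added and counted as moved from 2-fold upward, given 5 CPM or more in either library. Levels between genes were divided by the exon length of GENCODE 29. Alternatives were DESeq2 1.42.0, limma-voom (limma 3.58.1), DESeq2 size factors, total counts, no filter, a block for line alone, no block, leaving out each library, and for ratios total counts, other offsets and minimums and the other DMSO library. The fits were also run on simulated counts with a fixed spread and few changed genes. In the drug comparisons these held no difference in response between lines, so they do not show how the fits handle the real spread.

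The members and 7 gene lists were chosen with earlier results of these data known. Named beside the members are, per list and drug, the called genes with the highest and lowest fold change, and the 2 nearest genes per member with a mean of at least 5 CPM. Genes outside this rule are named in background clauses, and the list genes that kept their calls were picked out after their values were seen. Some genes that the rule picks are not reported here. A fit that leaves out the only library of a drug in a line assumes that the remaining one varies like the other groups.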

Additional observations from a re-analysis of the deposited data

How the results depend on the processing

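With 1 library left out, 3 to 6 members were called for doxorubicin against DMSO, 3 without MDA-MB231 DMSO replicate 1. The other ranges over these fits were 0 to 1 for etoposide (1 only without a doxorubicin library or MDA-MB231 DMSO replicate 2), 0 (without MDA-MB231 DMSO replicate 1, U2OS DMSO or U2OS MMS) to 3 (without U2OS doxorubicin) for MMS, 1 (without MDA-MB231 doxorubicin) to 4 for doxorubicin against etoposide, 3 to 5 for MMS against doxorubicin and 0 (without U2OS MMS) to 3 (without MDA-MB231 MMS or DMSO replicate 2) for MMS against etoposide. With no replicate block, which ignores the pairing by line, the counts were 1 for doxorubicin, 0 for etoposide, 0 for MMS, 1 for doxorubicin against etoposide, 1 for MMS against doxorubicin and 0 for MMS against etoposide. DESeq2 called 2 for MMS, 6 for doxorubicin against etoposide, 2 for MMS against etoposide, and 1 for each line term of doxorubicin and MMS. Limma-voom and the block for line alone each called 2 for MMS and 2 for MMS against etoposide, and DESeq2 size factors and no filter each called 2 for MMS. Within a line, total counts gave 3 members for doxorubicin and 0 for etoposide in U2OS. Over all genes these moved 855 up and 3093 down of 11609, and 1096 up and 615 down of 11734. In MDA-MB231 the other DMSO library gave 8, 2 and 1 for doxorubicin, etoposide and paclitaxel. It moved 1346 up and 2337 down of 11179 genes, 1151 and 1422 of 11037, and 279 and 119 of 10913. An offset of 0.1 gave 1 for etoposide there, beside 989 up and 1271 down of 11023 genes. An offset of 1 gave 0 for MMS there, beside 276 up and 337 down of 10783 genes. Over all genes, calls ranged from 1900 to 7057 for doxorubicin, 0 to 3832 for etoposide and 0 to 2903 for MMS. They ranged from 1807 to 7749 for doxorubicin against etoposide, 1884 to 7408 for MMS against doxorubicin and 0 to 2796 for MMS against etoposide. The all-gene share of each fit is not set beside its member count, so these counts are not read as particular to the family. The cause of the changes in these counts was not tested.

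Signs turned in values that were not called. With no replicate block these were KLF4 with etoposide (-0.0598), KLF5 (0.15) and KLF6 (-0.35) with paclitaxel, KLF6 (0.0711) and KLF13 (-0.26) with MMS, KLF7 with etoposide (0.19) and KLF13 with doxorubicin (0.17). Total counts turned KLF2 with paclitaxel (0.00107) and MMS (0.0100) and KLF7 with etoposide (0.13). Limma-voom turned KLF2 with paclitaxel (0.0138) and KLF13 with MMS (-0.30), and the block for line alone turned KLF2 (0.0399) and KLF11 (-0.0576) with paclitaxel, KLF13 with MMS (-0.30) and the line difference of KLF10 (-0.0392). The other DMSO library turned the MMS ratio of KLF13 in MDA-MB231 (-0.48). Over the fits without 1 library, etoposide values ran from -0.0646 to 0.31 for KLF2, -0.23 to 0.41 for KLF4, -0.67 to 0.20 for KLF5, -0.19 to 0.27 for KLF7, -0.15 to 0.47 for KLF10 and -0.84 to 0.0293 for KLF11. Paclitaxel values ran from -0.23 to 0.20 for KLF2, -0.0716 to 0.21 for KLF3, -0.80 to 0.39 for KLF5, -0.10 to 0.54 for KLF6, -0.20 to 0.18 for KLF10 and -0.11 to 0.38 for KLF11. MMS values ran from -0.40 to 0.28 for KLF2, -0.89 to 0.17 for KLF3, -1.28 to 0.72 for KLF6, -0.92 to 0.25 for KLF11 and -0.80 to 1.05 for KLF13. Doxorubicin values ran from -0.86 to 0.54 for KLF5 and -0.40 to 0.14 for KLF13, and the line difference of KLF10 from -0.0873 to 0.22. Depth limits KLF2 and KLF7, at 17 and 30 reads in their lowest libraries.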
